A study of Drosophila melanogaster with 2 samples.

Results

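The peaks of CG15073 described here, called sites, lay outside protein-coding genes. They are the peaks of the authors' irreproducible discovery rate (IDR) list on the dm6 build whose summit was more than 500 bp from every protein-coding start site and outside every protein-coding gene body. The choice used position only, and genes for non-coding RNA did not count in it. It held for 213 of the 1445 IDR peaks (14.7%, exact 95% interval 13.0 to 16.7). The same rule held for 30.0% of the bases of the 6 chromosome arms, so IDR peaks fell at 5.31 per Mb there, against 13.1 per Mb in the rest of the arms. The other 1232 peaks comprised 523 in gene bodies away from start sites and 709 at start sites.

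The data are from 1 group of transgenic fly embryos in 2 biological replicates, numbered 3 and 4. The line stably expressed CG15073 with eGFP at its C-terminal end, the embryos were whole, of both sexes and 0 to 24 h old, and the fusion protein was recovered with an anti-GFP antibody. What drives the fusion gene is not stated in the labels. Every value is an average over all embryonic cell types and stages. No second genotype, antibody or stage was analysed here, and all comparisons are between positions or replicates. Intervals cover the counting of peaks only, since read depth is unknown, and neighbouring peaks are not independent.

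In chromatin immunoprecipitation and sequencing (ChIP-seq), DNA held by a chosen protein is recovered and piles up as peaks along the genome. In the fly, DNA between protein-coding genes holds many enhancers, which switch on a gene from a distance, and insulators, which keep the enhancers of one gene from acting on its neighbour. It also holds genes for long non-coding RNAs, microRNAs and transfer RNAs, and the remains of transposable elements. CTCF is a zinc finger protein known for binding insulators in flies and mammals.

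Strong sites are shown first, to give the DNA under the highest signals. They rank 1, 3, 4, 5 and 8 among the 213 sites, and the first 4 of them hold one or the other of 2 short motifs. The sites of rank 2, 6 and 7 are not printed and held neither motif. Windows are 121 bp long and centred on the summit. A peak is named by the protein-coding genes on its left and right. Sequences are the plus strand of the Release 6 fly assembly (dm6, RefSeq FASTA), and capitals mark the matches to 2 short motifs on either strand. One is the CTCF core (AGATGGCGC, AGGTGGCGC, AGAGGGCGC or AGGGGGCGC). The other, called the ACAGT motif here (ACAGTGGTG, ACAGTGGCG, ACAGTCGTG or ACAGTCGCG), was written down after the data were examined, from 10-base words common in the 100 strongest peaks that lie at or in protein-coding genes. Jhbp2/Jhbp1 (3R:4962759-4962879), NimC3/hll (2L:14022585-14022705) and Gr98d/Klp98A (3R:27547655-27547775) each held 1 ACAGT motif. The wgn/Rip11 window (X:18635442-18635562) held 2 CTCF cores, and that of mtSSB/tara (3R:16222422-16222542) neither motif.
Jhbp2/Jhbp1: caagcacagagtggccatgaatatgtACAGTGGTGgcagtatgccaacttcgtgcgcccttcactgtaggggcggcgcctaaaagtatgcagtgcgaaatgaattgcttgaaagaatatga
NimC3/hll: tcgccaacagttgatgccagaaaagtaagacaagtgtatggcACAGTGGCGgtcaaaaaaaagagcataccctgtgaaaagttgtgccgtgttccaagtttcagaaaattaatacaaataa
wgn/Rip11: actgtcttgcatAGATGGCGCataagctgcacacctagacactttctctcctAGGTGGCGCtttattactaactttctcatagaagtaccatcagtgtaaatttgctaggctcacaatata
Gr98d/Klp98A: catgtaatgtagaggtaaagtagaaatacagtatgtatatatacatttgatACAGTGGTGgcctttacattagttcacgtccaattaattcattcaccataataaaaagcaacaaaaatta
mtSSB/tara: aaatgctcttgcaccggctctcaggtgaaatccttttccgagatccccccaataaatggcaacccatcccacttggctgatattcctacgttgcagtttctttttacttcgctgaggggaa

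Weaker sites with a CTCF core are shown because the core was found in 14 of the 213 sites. Windows of 201 bp, also plus strand, are given for Men/Ugt37A2 (3R:12723861-12724061), jp/brwl (2L:9567415-9567615), Sid/snu (3R:28672333-28672533), Sox21a/Sox21b (3L:14111539-14111739) and Cad89D/Gr89a (3R:16497479-16497679). Men/Ugt37A2 held 2 cores, and Cad89D/Gr89a held 1 core and 1 ACAGT motif, both reading on the minus strand. The site at soti/cv-c (3R:14391347-14391467, 121 bp) held 3 cores, the most of any site.
Men/Ugt37A2: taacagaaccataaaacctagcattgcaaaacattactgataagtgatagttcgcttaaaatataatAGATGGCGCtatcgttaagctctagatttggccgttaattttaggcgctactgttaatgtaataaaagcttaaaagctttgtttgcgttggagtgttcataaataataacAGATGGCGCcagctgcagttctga
jp/brwl: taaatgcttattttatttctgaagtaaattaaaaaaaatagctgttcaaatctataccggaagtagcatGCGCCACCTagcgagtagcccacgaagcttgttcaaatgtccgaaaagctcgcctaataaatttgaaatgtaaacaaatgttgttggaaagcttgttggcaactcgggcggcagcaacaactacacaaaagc
Sid/snu: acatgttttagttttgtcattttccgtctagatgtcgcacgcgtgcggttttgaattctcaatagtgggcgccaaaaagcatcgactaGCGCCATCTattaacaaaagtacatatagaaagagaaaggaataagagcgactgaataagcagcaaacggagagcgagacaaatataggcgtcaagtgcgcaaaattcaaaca
Sox21a/Sox21b: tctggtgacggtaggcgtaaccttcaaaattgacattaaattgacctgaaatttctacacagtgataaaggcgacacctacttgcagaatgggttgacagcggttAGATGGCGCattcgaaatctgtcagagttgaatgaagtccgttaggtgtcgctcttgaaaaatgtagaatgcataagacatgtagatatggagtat
Cad89D/Gr89a: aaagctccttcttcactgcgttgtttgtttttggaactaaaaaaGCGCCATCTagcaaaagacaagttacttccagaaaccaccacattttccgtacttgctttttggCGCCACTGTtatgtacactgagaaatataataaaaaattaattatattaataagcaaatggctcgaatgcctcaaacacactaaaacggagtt
soti/cv-c: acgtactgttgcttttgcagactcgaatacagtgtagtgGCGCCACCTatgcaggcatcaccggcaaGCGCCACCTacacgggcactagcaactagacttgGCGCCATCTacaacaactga

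The ACAGT motif also occurred at weaker sites, in each of its 4 spellings. Windows of 201 bp on the plus strand show it at CG18302/Trim9 (2L:10544001-10544201), at CG6163/CG11726 (3L:11370483-11370683), where it reads on the minus strand, and at CG45544/CG14506 (3R:29292371-29292571).
CG18302/Trim9: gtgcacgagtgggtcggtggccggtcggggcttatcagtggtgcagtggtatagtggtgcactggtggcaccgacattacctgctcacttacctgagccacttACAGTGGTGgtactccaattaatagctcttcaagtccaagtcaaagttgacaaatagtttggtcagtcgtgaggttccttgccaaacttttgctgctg
CG6163/CG11726: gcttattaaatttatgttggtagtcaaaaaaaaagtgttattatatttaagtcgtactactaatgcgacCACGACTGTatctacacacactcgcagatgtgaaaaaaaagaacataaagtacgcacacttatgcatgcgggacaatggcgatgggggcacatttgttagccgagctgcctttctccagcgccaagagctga
CG45544/CG14506: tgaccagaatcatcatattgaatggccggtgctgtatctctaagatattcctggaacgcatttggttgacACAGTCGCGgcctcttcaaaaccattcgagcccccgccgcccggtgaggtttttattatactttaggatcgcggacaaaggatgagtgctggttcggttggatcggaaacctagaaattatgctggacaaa

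The strongest site of the set stood far above the others. The Jhbp2/Jhbp1 peak, between genes named for juvenile hormone binding proteins, had a pooled signal of 6779, with 3991 in replicate 3 and 2849 in replicate 4. Signal is the strength given by the authors' peak caller, on a scale that the sources used here do not state. This peak ranked 2 among all IDR peaks and 2 in each replicate list. Its summit, at 3R:4962819, lay 1468 bp upstream of Jhbp2, in an interval of 4093 bp from which both genes are transcribed outwards. The ACAGT motif of the first window printed is centred 30 bp from that summit.

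Only 3 further peaks had pooled signals above 1000. conv/Ih (2R:14275519) had a pooled signal of 2035, with 1282 in replicate 3 and 778 in replicate 4. It lay 24 bp from the 3′ end of conv and 611 bp upstream of Ih, which encodes a cation channel opened by hyperpolarization. NimC3/hll (2L:14022645) had a pooled signal of 1803, with 1203 in replicate 3 and 659 in replicate 4. It lay 2437 bp upstream of NimC3, a gene of the Nimrod family of phagocytosis receptors. wgn/Rip11 (X:18635502) had a pooled signal of 1027, with 653 in replicate 3 and 386 in replicate 4. It lay 594 bp upstream of wgn, the gene of the TNF receptor Wengen, and 140 bp from the 3′ end of Rip11. These 3 peaks ranked between 10 and 31 in both replicate lists.

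The fifth, Gr98d/Klp98A (3R:27547715), lay in an interval of only 312 bp between the 3′ ends of a gustatory receptor gene and a kinesin gene, 60 bp from the nearer one. Its pooled signal was 577, with 402 in replicate 3 and 190 in replicate 4. Of the 5 strongest sites, 3 thus lay within 140 bp of the 3′ end of a gene, in intervals of 312, 634 and 733 bp. Below them came Dgk/CG30377 (2R:7889478), with a signal of 511, and Su(z)2/CG13323 (2R:13035343) with 446. The first lay 547 bp upstream of CG30377 and 3496 bp from the diacylglycerol kinase gene Dgk. The Su(z)2/CG13323 summit lay 9352 bp from the nearest gene body, that of CG13323, and 27432 bp from Su(z)2, a Polycomb group gene.

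The remaining 5 of the 12 strongest had signals between 289 and 349. mtSSB/tara (3R:16222482, signal 349) lay 3169 bp upstream of tara, and Cyt-c1L/eEF1gamma (3R:29214445, signal 294) lay 5727 bp upstream of the translation elongation factor gene eEF1gamma. CG4004/Paics held 2 of the 5, at X:12751387 (344) and X:12752375 (289), and Cph/CG1958 (X:7252733) had 323. These last 3 lay in long non-coding RNA genes. All 12 were among the 1445 strongest peaks of each replicate.

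Below the leading peaks, the sites outside genes were weaker than the other IDR peaks by a small margin. Their median pooled signal was 88.9 (quartiles 75.2 and 124, range 66.6 to 6779), against 94.1 in gene bodies and 99.2 at start sites. The order of the medians was the same in replicate 4 (38.1, against 38.7 and 42.2), while in replicate 3 the sites outside genes were again lowest (54.5) but gene bodies (61.8) lay above start sites (60.6). The quartiles of the 3 classes overlapped in each list. The stronger 722 IDR peaks included 41.8% of the sites outside genes, against 48.0% of the peaks in gene bodies and 53.9% of those at start sites. They made up 9 of the 100 strongest IDR peaks (exact 95% interval 4.20 to 16.4), with 45 in gene bodies and 46 at start sites. Whether these differences exceed chance was not tested.

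**Figure D1:**
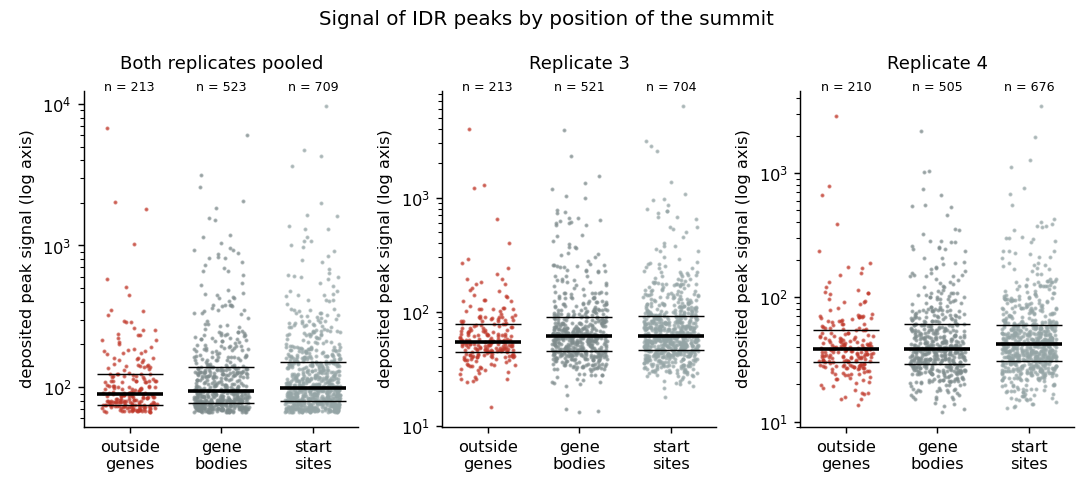
Deposited signal (log axis) of each IDR peak outside genes, in gene bodies and at start sites, in the pooled list and, for peaks with a partner there, in each replicate list. Thick lines are medians and thin lines quartiles; the sites outside genes have the lowest median in each list (88.9, 54.5 and 38.1), with wide overlap.

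Most sites outside genes were found in both biological replicates. The IDR list itself was made from these replicates, so part of this recurrence is built in. A site was counted as recurring where each replicate list held, among its 1445 strongest peaks, a summit within 200 bp. That was so for 129 of the 213 (60.6%, exact 95% interval 53.7 to 67.2), while over all IDR peaks it held for 62.9%, the background share. Within the IDR peaks the shares were 61.6% in gene bodies and 64.6% at start sites. Without the limit to the strongest peaks, 96.2% of the peaks in gene bodies and 94.6% of those at start sites had a partner in both replicate lists. Of the sites outside genes, 210 of 213 (98.6%) had one. The other 3 lacked one in replicate 4, namely scf/Rac1 and 2 peaks on either side of the rhodopsin gene Rh5 (Hacd1/Rh5 and Rh5/Wdr81).

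A few sites differed widely between the replicates. Tim23/none (2L:23512878), beyond the last gene of the arm, had a pooled signal of 209 and ranked 66 in replicate 4 (signal 177) but 4022 in replicate 3 (signal 25.8). plh/corto (3R:5053803, pooled signal 87.6) ranked 536 in replicate 4 and 17758 in replicate 3. CG33453/tbrd-2 (2R:19256142) differed in the opposite direction, with rank 912 in replicate 3 and 21411 in replicate 4, and was also the weakest site of all (66.6). The next weakest were wnd/Rnf146 (66.6) and Dip-B/tal-2A (67.1), neither of which recurred.

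**Figure D2:**
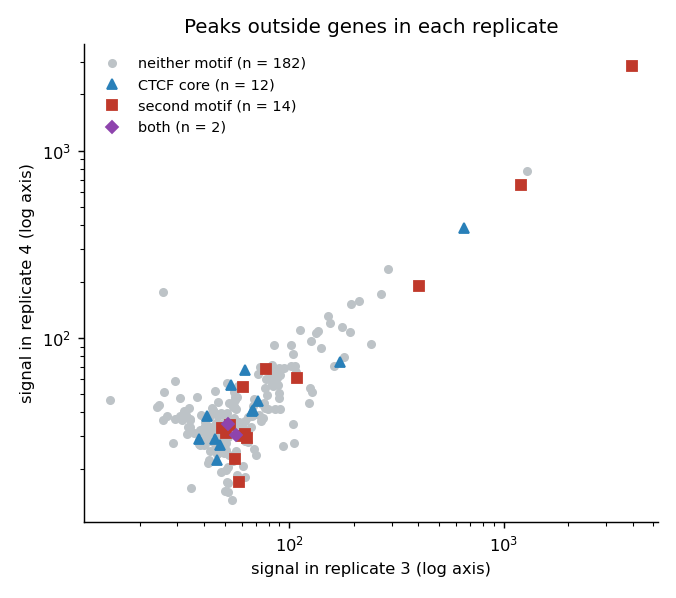
Signal in replicate 3 and in replicate 4 (both log axes) of the 210 sites outside genes with a partner in both lists, marked by motif (the second motif is the ACAGT motif). The Jhbp2/Jhbp1 peak is at the upper right (3991 and 2849), and Tim23/none is the grey point that stands apart at the left (25.8 and 177).

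Sites outside genes lay closer to start sites than the DNA available to them. Their median distance to the nearest protein-coding start site was 3521 bp (quartiles 1468 and 9544, range 511 to 199300), and that of all bases meeting the rule was 8541 bp. The bin from 501 to 1000 bp held 30 sites (14.1%, exact 95% interval 9.71 to 19.5), against 5.65% of these bases. The bin from 1001 to 2000 bp held 49 (23.0%, 17.5 to 29.2), against 9.32% of bases. Over 10000 bp away lay 52 sites (24.4%, 18.8 to 30.8), against 45.6% of bases. Between 2001 and 5000 bp the shares were 22.5% and 20.3%. With soft-masked (repetitive) bases left out, the bases over 10000 bp away were 41.6% of the total and those from 1001 to 2000 bp 10.1%. How far mappability bears on these shares was not tested.

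Distance went with little change in median signal, but the highest signals lay nearer to start sites. The median signal was 91.7 for the 30 sites nearest to a start site and 87.1 for the 52 over 10000 bp away, and between them it ran from 81.5 to 94.0. The highest signals were 2035, 6779 and 1803 in the bins up to 5000 bp, in order. From 5001 to 10000 bp the highest was 344, and over 10000 bp it was 446. Recurring sites were 66.7% of the nearest bin, 51.0% of the 49 from 1001 to 2000 bp and 57.7% of the farthest. Most sites, 144 (67.6%, exact 95% interval 60.9 to 73.8), were upstream of their nearest start site and the others downstream of it, past the gene's end. No share of bases stands beside this one. Because the rule leaves out gene bodies, an excess of upstream bases among those meeting it was not separated from it. Of the sites that met the rule, those closest to the 500 bp limit lay at dmGlut (511 bp, signal 78.9) and CG5973 (538 bp, 75.3). The peaks that came closest without meeting it lay at CG17896 (499 bp, 164) and Boot (491 bp, 118).

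**Figure D3:**
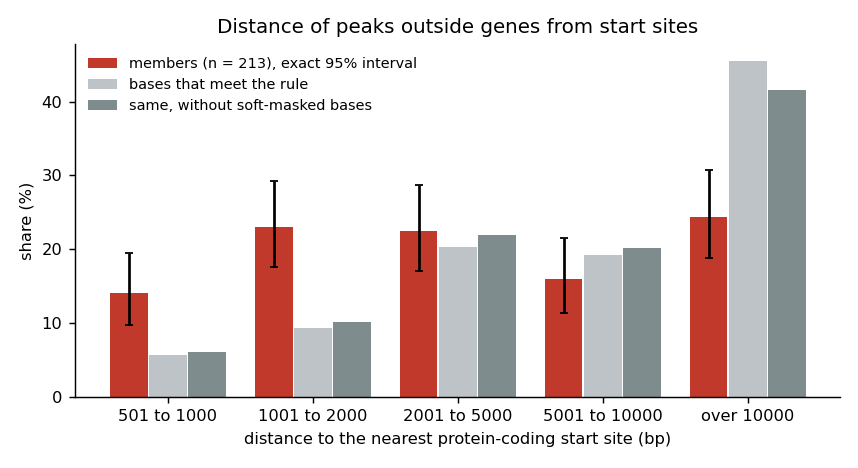
Share of the 213 sites outside genes, with exact 95% intervals, and of the bases that meet the same rule, by distance to the nearest protein-coding start site. Up to 2000 bp the sites exceed the bases (23.0% against 9.32% from 1001 to 2000 bp), and over 10000 bp they fall below them (24.4% against 45.6%).

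The 5 sites farthest from any protein-coding gene body lay in gene-poor stretches. Tim23/none was 199300 bp from Tim23, and 97.0% of its 201 bp window was soft-masked. Or67d/CG12362 (3L:10334830, signal 78.1) was 60206 bp from the odorant receptor gene Or67d, in an interval of 138193 bp, the widest with a site. It lay in lncRNA:CR46006 and held an ACAGT motif. The pair at grim/rpr (3L:18348783 and 3L:18349442, signals 82.5 and 74.8) lay 44366 and 45025 bp upstream of grim, in the cluster of genes known for starting programmed cell death. Of this pair, only the one at 3L:18348783 recurred. NijA/CG43245 (3L:10739801, signal 90.0) lay 32124 bp from CG43245 and recurred.

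Sites also lay in shorter intervals between genes than the available DNA did. With each interval counted once per site in it, the median length was 14505 bp, against 27542 bp for bases meeting the rule. Intervals over 50000 bp held 14 sites (6.57%, exact 95% interval 3.64 to 10.8), against 28.9% of those bases. The flanking genes were divergent, with both starts facing the site, for 73 sites (34.3%, 27.9 to 41.1), against 23.7% of bases. They were convergent for 40 (18.8%, against 21.8% of bases) and in tandem for 99 (46.5%, against 49.8%). Convergent sites had the highest median signal, 104, with 87.5 at divergent and 86.0 at tandem ones. Of all 213 sites, 19 (8.92%, 5.46 to 13.6) lay within 500 bp of a 3′ end that was the nearest gene edge, against 4.94% of bases. These 19 had a median signal of 81.0, and 9 of them recurred.

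The 213 sites were unevenly spread over the arms. Arm 2L held 58 (27.2%, exact 95% interval 21.4 to 33.7), against 18.6% of the bases meeting the rule. Arm 2R held 29 (13.6%, 9.31 to 19.0), against 19.8% of bases. With soft-masked bases left out, the base shares were 19.4% for 2L and 18.9% for 2R, the second of which lies within its interval. For 3L (59 sites), 3R (38), X (25) and 4 (4 sites) the interval of the share included that of the bases. The sites of 2L recurred in 46.6% and those of 3L in 71.2%, and the median signals were 84.7 and 86.9. The highest median signal was that of 2R (122).

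The sites fell in 165 intervals, and 30 intervals held more than 1 of them, 78 sites in all. The interval with most was RFeSP/chinmo on 2L, upstream of chinmo, the gene of a BTB zinc finger protein known for the timing of neuronal fates. Its 5 sites spanned 16815 bp, with pooled signals of 97.0, 179, 150, 87.0 and 68.4 in order towards chinmo. The first 3, at 18432, 12470 and 7843 bp from the start site, recurred, and the 2 nearer ones, at 2466 and 1617 bp, did not. The second ranked 398 in replicate 3 (signal 85.0) and 170 in replicate 4 (92.0), while the fourth ranked 3965 (26.0) and 459 (51.1).

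**Figure D4:**
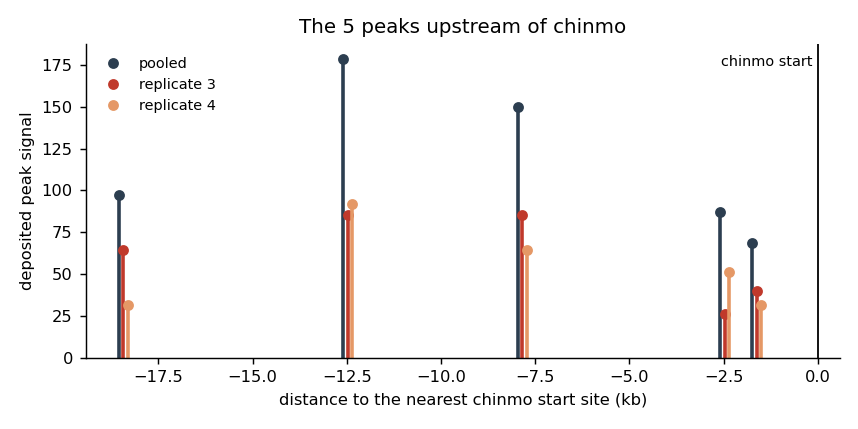
Pooled and replicate signals of the 5 sites upstream of chinmo, by distance to its nearest start site (0 kb). The site 12470 bp upstream has the highest pooled signal of the 5 (179), and the one 1617 bp upstream the lowest (68.4).

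Groups of 4 sites lay within 20 kb on 2L and on 3L. The first spanned 9879 bp across the neighbouring intervals CG33648/CG4218 and CG4218/CG3473, with signals from 67.6 to 91.8. The second spanned 12398 bp in CG44362/CG7560, with signals from 74.0 to 181, and all 4 of its sites recurred. No other IDR peak lay within either span or within that at chinmo. Across the set, 5 pairs of neighbouring sites had peaks that overlapped, so their signals are not independent, and 4 sites shared a replicate 4 partner with another.

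Genes for non-coding RNA, which the choice of sites ignored, held 28 of the 213 summits (13.1%, exact 95% interval 8.92 to 18.4), and such genes cover 7.16% of the bases meeting the rule. All 28 were in long non-coding RNA genes, which cover 6.28% of those bases, and 21 of them were in an exon. No site lay in a transfer RNA, small nuclear, small nucleolar or ribosomal RNA gene, in an antisense RNA gene or in a pseudogene. A count of 0 of 213 allows a share of up to 1.41%, and pseudogenes cover 0.544% of the bases, antisense RNA genes 0.227% and each of the others under 0.05%. Near the start of a non-coding gene, within 500 bp, lay 25 sites (11.7%), against 4.10% of bases.

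The strongest site in a long non-coding RNA gene was the CG4004/Paics peak in lncRNA:Vinr, with 344 in the pool, 212 in replicate 3 and 157 in replicate 4. It was followed by Cph/CG1958 in lncRNA:CR44357 with 323 (242 and 92.7 in replicates 3 and 4). The second CG4004/Paics peak, in lncRNA:CR44619, had 289 (151 and 132 in replicates 3 and 4). A second NimC3/hll peak, in lncRNA:CR31840, had 262 (154 and 120). All 4 recurred. The chm/muc peak (2L:7425859, signal 93.4) was in an exon of lncRNA:CR43857 and also in the microRNA gene mir-275, the one site of the set in a microRNA gene, and it did not recur. The Ubx/CG31275 peak (3R:16748757, signal 73.6) lay in lncRNA:bxd of the bithorax complex, upstream of the homeotic gene Ubx, and held a CTCF core. The 28 sites had a median signal of 92.3 and 53.6% recurred, against 88.2 and 61.6% of the 185 in no non-coding gene.

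Transposable elements held few sites. An annotated element, each an INE-1 copy, covered 3 summits (1.41%, exact 95% interval 0.291 to 4.06), against 10.5% of the bases meeting the rule and 6.58% of those that are not soft-masked. The low share was not particular to these sites. Such elements covered 0 of 523 summits in gene bodies and 3 of 709 (0.423%) at start sites. The 201 bp windows had a median of 18.9% soft-masked bases, against 26.1% of all bases meeting the rule. Their median GC content was 37.3%, against 40.6% in those bases. In peaks in gene bodies and at start sites, the median GC content was 36.3% and 34.3%. Mappability was not measured here, and its part in these counts was not tested.

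Of the gene lists, chosen with earlier results of these data known, that of developmental transcription factors flanked the most sites. These genes set body axes, segments and cell types in the embryo. Of the 213 sites, 31 had such a gene on one side or both (14.6%, exact 95% interval 10.1 to 20.02), against 9.63% of bases in intervals flanked by the list. With soft-masked bases left out, that base share was 10.3%, inside the exact interval. Some of these sites lay between the same genes, as at noc/CG33648 and SoxN/CG32986, and are not independent. The median signal of the 31 was 87.5, below that of all 213 sites (88.9), and 18 recurred. The strongest were slp1/slp2 (2L:3832521, signal 231), between the paired forkhead genes of segmentation, C15/sp3 (3R:21520382, 216) and CG5087/Doc3 (3L:9003608, 182), beside a T-box gene. The C15/sp3 site lay 546 bp upstream of sp3 and 7568 bp from the homeobox gene C15. slp1/slp2 had 141 and 88.2 in replicates 3 and 4, C15/sp3 had 112 and 110, and CG5087/Doc3 had 128 and 51.3.

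The other lists held few sites each. Adhesion and axon guidance genes flanked 6 (2.82%, against 6.64% of bases), led by robo2/CG43401 (96.3), CG7255/Toll-6 (88.2) and 18w/CG11041 (85.5). Ion channel genes flanked 4 (1.88%, against 1.18%), with CG9300/Shal (132), beside a potassium channel gene, and out/nAChRalpha7 (70.3) after conv/Ih. Chemoreceptor genes flanked 3 (1.41%, against 3.44%), namely Gr98d/Klp98A, Cad89D/Gr89a (90.6) and Or67d/CG12362, and each of the 3 held an ACAGT motif. Signalling genes flanked 2 (0.939%, against 1.41% of bases), wgn/Rip11 and Wnt4/wg (78.9). The Wnt4/wg site lay between a pair of Wnt ligand genes and did not recur. The list of nuclear receptors and ecdysone response genes had only 1 site (0.469%, against 0.436% of bases), beside Jhbp2, a juvenile hormone binding protein gene. Cuticle protein genes flanked 0 sites (against 0.791% of bases). None of these shares was tested.

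The CTCF core lay within 100 bp of the summit at 14 of the 213 sites outside genes (6.57%, exact 95% interval 3.64 to 10.8). Over all IDR peaks the share was 2.77%, in gene bodies it was 2.49% (1.33 to 4.21) and at start sites 1.83% (0.980 to 3.12). In windows of the same length 1000 bp to each side of the sites, 1 of 426 held it (0.235%). Of the 193828 windows of 201 bp that tile the bases meeting the rule, 0.345% did. Within the 14 sites the nearest match was a median of 20.5 bp from the summit, and at 10 of them within 30 bp. A match is a stretch of letters and does not show that CTCF was bound there.

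The sites with a CTCF core ran from wgn/Rip11 (signal 1027) down to CG15452/shakB (72.8). After wgn/Rip11 came Men/Ugt37A2 (3R:12723961, signal 239, with 173 in replicate 3 and 74.0 in replicate 4), 1519 bp upstream of Men, the malic enzyme gene. Next were CG14762/Optix (124), jp/brwl (117), CG44439/CG14760 (110), Sid/snu (108), Sox21a/Sox21b (102) and Cad89D/Gr89a (90.6). Optix and the Sox21 pair are transcription factor genes of the list above. The CG14762/Optix site lay 643 bp from CG14762 and 16885 bp from Optix. The median signal of the 14 sites with the core, 96.1, was near that of the 199 sites without it (88.8), and 10 of the 14 recurred, against 119 of the 199. Among these 14 sites, 3 held more than 1 match, and 5 lay within 500 bp of a 3′ end that was the nearest gene edge. The 18 matches were AGATGGCGC (10) or AGGTGGCGC (8).

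The ACAGT motif lay within 100 bp of the summit at 16 of the 213 sites (7.51%, exact 95% interval 4.35 to 11.9), against 9.55% of all IDR peaks. Its share was 13.8% in gene bodies and 7.05% at start sites, but these include the peaks from which the motif was drawn. Among the 10 words of 10 bases most common in the 100 strongest of those peaks relative to flanking windows, 6 held the motif. ACAGTGGTGG, for instance, was in 16 of the 100 peaks and in 2 of 2464 windows. These windows flank all IDR peaks at or in protein-coding genes, not the 100 alone. The sites outside genes were not used to find the motif. In windows 1000 bp from them 3 of 426 held it (0.704%), and 0.351% of the eligible windows did. The nearest match was a median of 24 bp from the summit, and at 11 of the 16 sites within 30 bp.

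Sites with the ACAGT motif were found at all strengths. Of the 12 strongest sites 3 held it (25.0%), of the next 38 it was 2 (5.26%), and of the other 163 it was 11 (6.75%). In the 50 strongest peaks in gene bodies it was present in 28 and in the 50 strongest at start sites in 23, many of them used to find it, while the 50 strongest sites outside genes had it in 5. Of the 16 sites with the motif, 14 recurred (87.5%, exact 95% interval 61.7 to 98.4), against 115 of the 197 without it (58.4%, 51.2 to 65.3). Their median signals were 93.5 and 87.6, and neither difference was tested. Only Cad89D/Gr89a and osp/CG15282 held both motifs, and no ACAGT match overlapped a CTCF match.

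**Figure D5:**
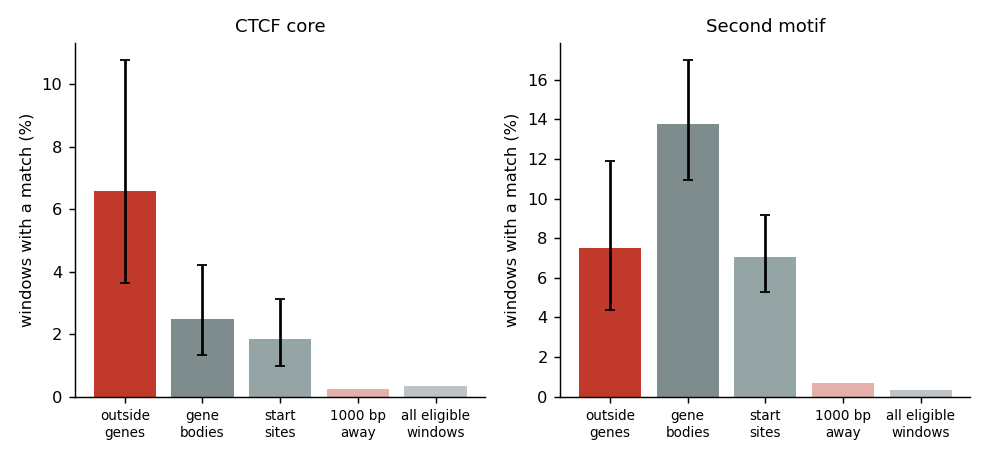
Share of 201 bp windows with a match to each motif, at sites outside genes, in gene bodies and at start sites (exact 95% intervals), 1000 bp from the sites outside genes, and over all windows that meet the rule. The CTCF core is at 6.57% of sites outside genes and 0.345% of eligible windows; the ACAGT motif (second motif) was drawn from the strongest peaks of gene bodies and start sites.

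Other motifs were also searched on both strands. GAGAGA, the repeat bound by GAGA factor, was at 10.8% of sites (exact 95% interval 6.97 to 15.8), 6.57% of windows 1000 bp away and 6.74% of eligible windows, while over all IDR peaks it was at 10.6%. TAATTA, a homeodomain core, was at 12.2% of sites (8.13 to 17.4), 16.5% of all IDR peaks and 14.1% of eligible windows. The GATA site TGATAA was at 14.6% of sites, 17.9% of all IDR peaks and 12.3% of eligible windows. For the Zelda site CAGGTA the shares were 3.76%, 4.22% and 4.29%. GCCAT, the core of Pho, was at 35.2% of sites, 29.7% of all IDR peaks and 35.4% of eligible windows; it is contained in the AGATGGCGC spelling of the CTCF core on the other strand. TATCGATA, the DREF element known from fly promoters, was at 0 of 213 sites, which allows a share of up to 1.41%, at 1.31% of all IDR peaks and at 0.442% of eligible windows. GGTCACACT, the M1BP core, was at 2 sites (0.939%), 0.761% of all IDR peaks and 0.0960% of eligible windows.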

How the data were processed

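Peaks came from 1 group of 2 biological replicates. The authors deposited a signal per peak, of unstated scale and normalization, a −log10 q-value and a summit offset, in an IDR list of 1445 peaks, a pooled list and a list per replicate, all on dm6. Per the labels, chromatin was sonicated to 200 to 800 bp. Neither the alignment and peak calling tools nor the IDR cutoff is given in the sources used here, read numbers are unknown, and control libraries were not analysed here. The deposited −log10 q-value stood at its ceiling of 3.24 for 112 of the 213 sites, so peaks were ranked by signal. The IDR list holds the strongest peaks of the pooled list, so signal within it is bounded below at 66.5. Signals are not compared as amounts between lists.

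Summits were placed against 13945 protein-coding genes (19607 start sites) and 4219 non-coding genes of Ensembl release 115 (BDGP 6.54). Eligible bases, distances, orientation and motifs (both strands, 100 bp to each side) were computed with Python 3.11.15, numpy 2.4.6, pandas 2.3.3 and scipy 1.17.1, and figures with matplotlib 3.10.9. Positions are 1-based. Shares have exact (Clopper-Pearson) 95% intervals, and no p-value is given. The limit beside a count of 0 is 3 counts of the total. Site classes, motif matches and replicate partners were tested on simulated data. The lists on dm3 were not used.

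The sites, lists and motifs were chosen with earlier results of these data known, and the ACAGT motif and the masked-base shares after seeing the data. Named are the 12 strongest sites, the 5 farthest from genes, the 3 weakest, the 3 with the largest gap between replicate ranks, those at the 500 bp limit, the 3 densest groups, up to 3 per list, 4 per non-coding class and 8 with a CTCF core. The Ubx/CG31275, osp/CG15282, soti/cv-c and CG15452/shakB sites, those without a partner and further examples of the ACAGT motif were named after their values were seen.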

Additional observations from a re-analysis of the deposited data

How the results depend on the processing

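Of 77 values recomputed under 14 other settings, 67 stayed within the margin set for each (the spread between replicates, the exact interval, or 1.5 times for counts) and 10 moved. For differences in median signal, the spread was that of the values with each replicate left out. A difference that varied more between replicates thus had a wider margin, so the tally does not grade how stable these differences are. Restricting the list to the stronger 722 IDR peaks left 89 sites and raised recurrence to 95.5%. Pooled signal comes from the same 2 replicates, so this rise is partly built in, and no share over all stronger IDR peaks stands beside it. The same restriction brought the log2 difference in median signal between sites outside genes and start-site peaks to −0.044, against −0.16 with all peaks. With a start-site margin of 250 bp that difference was −0.11 and with 1000 bp −0.18, and with either replicate left out it was −0.15. The difference from peaks in gene bodies was −0.08, with −0.021 and −0.18 without replicate 3 and replicate 4 and −0.024 in the stronger peaks. Recurrence was 46.9% with partners within 50 bp and 86.9% with 2 times as many replicate peaks. Counting sites within 500 bp of a non-coding start raised the non-coding share to 18.8%. With replicate 3 or replicate 4 left out, the sites numbered 237 and 206, and 10.1% and 14.1% of them were in non-coding genes. RefSeq gene models, added after seeing the data, kept all 213 sites. The shares with a CTCF core or an ACAGT motif moved by less than 1.5 times under every setting run. No paired analysis was possible because the series has 1 group only. Depth is unknown, so weak sites cannot be graded by reads.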
